A study of Mus musculus with 18 samples.

Results

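BMAL1 had heart peaks in 363 mouse regions that also held a peak of exactly 1 of the other tissues examined. Of these, 228 were shared with kidney and 135 with liver. These regions were chosen by the presence of peaks in 3 deposited lists, 1 each for liver, kidney and heart: peaks of different tissues that overlapped by 1 bp or more were merged, and a merged region was kept when it held a heart peak and a peak of kidney or liver but not of both. They make up 4.03% of all 9005 merged regions and 14.4% of the 2519 regions with a heart peak. The kidney and heart regions are 9.05% and the liver and heart regions 5.36% of the regions with a heart peak. Of the rest, 519 regions held peaks of all 3 tissues, 1637 were found in heart only, and 960 were shared by liver and kidney without heart.

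The study mapped BMAL1 by ChIP-seq (chromatin immunoprecipitation with sequencing), in which DNA crosslinked to a protein is pulled down with an antibody and read, in 18 libraries, 9 of them ChIP and the others input DNA. All mice were wild type on the C57BL/6 background, aged 3 to 6 months, housed with light and dark phases of 12 h each and free access to food, and the 3 tissues came from the same animals (3 mice per tissue). Organs were collected in the middle of the light phase (6 h into it) and crosslinked in 1% formaldehyde, and the chicken antibody was raised against the amino-terminal part of mouse BMAL1. Each peak list was made from all ChIP and input libraries of its tissue together, so the lists carry no spread between animals, and the depth behind each peak is unknown. The 3 heart input libraries are called kidney in their source label but heart in title and tissue label, so every region described here rests on a heart list whose input is in doubt.

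BMAL1 is the partner of CLOCK in the activating complex of the circadian clock. The pair binds the E-box, whose canonical form is CACGTG, and drives the genes of its own repressors along with many outputs, with highest binding in the daytime in mouse tissues. The core clock runs in nearly every cell, whereas most rhythmic outputs differ between organs. In heart, clock outputs are known in fuel use, contraction and electrical activity, in kidney in salt and water transport, and in liver in sugar, fat and bile acid handling.

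Where a heart peak lay on the start of a gene, the DNA under it could be read from RefSeq promoter windows of GRCm38.p6, which run from 250 bp before to 50 bp after a start site. The sequences of kidney and heart regions are given first, as the part of the heart peak inside the window, 5′ to 3′ on the strand of the gene, with CACGTG in capitals. Cipc, Macrod1, Mydgf and Gnai1 were the best-ranked members with an E-box in that stretch, Hsf2 was the gene of the gene lists with one in its own promoter window, and Trim37 was the best-ranked member without one. Cipc encodes a repressor of the CLOCK and BMAL1 complex, Macrod1 an enzyme that removes ADP-ribose from proteins, Mydgf a secreted growth factor, Gnai1 an inhibitory G protein subunit, Hsf2 a heat shock transcription factor and Trim37 a ubiquitin ligase. The stretches lie at chr12:86947192-86947389 on the plus strand (Cipc), chr19:7056576-7056773 on the plus strand (Macrod1), chr17:56183871-56184068 on the minus strand (Mydgf), chr5:18360426-18360623 on the minus strand (Gnai1), chr10:57486214-57486411 on the plus strand (Hsf2) and chr11:87126848-87127045 on the plus strand (Trim37).
Cipc: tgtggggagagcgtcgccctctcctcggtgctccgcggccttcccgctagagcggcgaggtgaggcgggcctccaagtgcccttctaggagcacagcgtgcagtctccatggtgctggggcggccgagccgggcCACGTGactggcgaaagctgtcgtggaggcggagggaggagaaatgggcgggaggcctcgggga
Macrod1: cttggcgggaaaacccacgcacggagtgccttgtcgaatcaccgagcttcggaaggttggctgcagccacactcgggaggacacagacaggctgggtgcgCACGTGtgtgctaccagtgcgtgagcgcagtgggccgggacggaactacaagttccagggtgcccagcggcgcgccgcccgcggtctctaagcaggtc
Mydgf: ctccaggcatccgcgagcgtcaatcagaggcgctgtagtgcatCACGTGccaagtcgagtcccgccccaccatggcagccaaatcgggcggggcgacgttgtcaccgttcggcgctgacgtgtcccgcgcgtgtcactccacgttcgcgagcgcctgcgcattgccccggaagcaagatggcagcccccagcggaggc
Gnai1: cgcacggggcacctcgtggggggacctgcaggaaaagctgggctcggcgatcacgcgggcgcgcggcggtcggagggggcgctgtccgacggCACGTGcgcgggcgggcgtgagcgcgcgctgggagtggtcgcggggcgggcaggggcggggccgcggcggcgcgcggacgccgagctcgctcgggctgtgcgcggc
Hsf2: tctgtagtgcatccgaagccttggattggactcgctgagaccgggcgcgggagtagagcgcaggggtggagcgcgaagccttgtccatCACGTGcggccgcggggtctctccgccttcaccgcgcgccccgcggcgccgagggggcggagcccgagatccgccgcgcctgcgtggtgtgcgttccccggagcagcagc
Trim37: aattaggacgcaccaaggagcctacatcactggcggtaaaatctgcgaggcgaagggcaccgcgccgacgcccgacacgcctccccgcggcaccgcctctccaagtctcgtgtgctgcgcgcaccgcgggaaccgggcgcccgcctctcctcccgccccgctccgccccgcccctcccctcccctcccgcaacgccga
In Macrod1, Gnai1 and Hsf2 the E-box lay 4, 4 and 8 bp from the centre of the heart peak, and in Cipc and Mydgf it lay 38 and 53 bp from it.

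For liver and heart regions the corresponding stretches are those of P2ry2, Atic, BC048644 and Ubfd1, the best-ranked members with an E-box there, Amdhd2, which was picked after its sequence was seen because it held the most E-boxes, and Mgll, the best-ranked member without one. P2ry2 encodes a receptor for extracellular nucleotides, Atic the enzyme of the last steps of purine synthesis, Amdhd2 a deacetylase of amino sugars and Mgll monoacylglycerol lipase. They lie at chr7:101011949-101012119 on the minus strand (P2ry2), chr1:71557101-71557205 on the plus strand (Atic), chr8:121907720-121907882 on the plus strand (BC048644), chr7:122066948-122067071 on the plus strand (Ubfd1), chr17:24163694-24163891 on the minus strand (Amdhd2) and chr6:88724454-88724641 on the plus strand (Mgll).
P2ry2: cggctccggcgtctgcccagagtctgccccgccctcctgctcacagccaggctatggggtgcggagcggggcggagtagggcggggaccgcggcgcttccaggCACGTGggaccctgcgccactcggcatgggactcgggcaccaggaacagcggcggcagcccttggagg
Atic: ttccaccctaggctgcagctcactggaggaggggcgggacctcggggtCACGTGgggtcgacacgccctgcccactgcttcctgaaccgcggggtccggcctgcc
BC048644: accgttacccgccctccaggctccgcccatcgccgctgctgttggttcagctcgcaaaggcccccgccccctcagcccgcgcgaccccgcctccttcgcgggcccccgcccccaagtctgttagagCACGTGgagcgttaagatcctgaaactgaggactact
Ubfd1: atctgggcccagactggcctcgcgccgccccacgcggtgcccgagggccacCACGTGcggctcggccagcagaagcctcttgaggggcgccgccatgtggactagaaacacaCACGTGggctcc
Amdhd2: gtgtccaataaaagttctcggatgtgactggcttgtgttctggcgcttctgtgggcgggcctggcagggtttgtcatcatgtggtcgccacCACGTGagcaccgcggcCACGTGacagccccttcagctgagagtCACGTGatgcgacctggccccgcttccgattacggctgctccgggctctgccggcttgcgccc
Mgll: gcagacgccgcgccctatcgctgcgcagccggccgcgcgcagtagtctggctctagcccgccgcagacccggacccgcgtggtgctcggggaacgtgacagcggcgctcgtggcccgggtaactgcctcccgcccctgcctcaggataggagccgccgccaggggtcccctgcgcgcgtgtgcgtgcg
The stretch of Amdhd2 held 3 copies of CACGTG and that of Ubfd1 held 2, while the other stretches with an E-box held 1 each. The E-box of P2ry2 lay 7 bp from the centre of the heart peak and 15 bp upstream of the start site.

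Across all members the E-box was common under those heart peaks that could be read. CACGTG reads the same on both strands, so each match was counted once, and only heart peaks with at least 100 bp inside a promoter window were used. Of 75 such kidney and heart peaks, 30 (40.0%, exact 95% interval 28.9 to 52.0) held CACGTG, as did 9 of 25 liver and heart peaks (36.0%, 18.0 to 57.5). The share was 102 of 182 (56.0%) for regions of all 3 tissues and 29 of 163 (17.8%) for heart-only regions. The intervals of kidney and heart and of liver and heart overlapped widely. By density their order was the other way, at 2.55 and 2.96 matches per kb, but Amdhd2 alone held 3 of the 12 liver and heart matches. Over whole windows of 300 bp, CACGTG was present in 32 of 83 windows (38.6%) under kidney and heart peaks and 10 of 29 (34.5%) under liver and heart peaks, against 2345 of all 32583 promoter windows (7.20%). The peak stretches were rich in G and C, with a median of 72.7% in kidney and heart and 72.2% in liver and heart against 53.0% over all windows. Among the 6005 windows with at least 65% G and C, 651 (10.8%) held CACGTG. More than 1 copy was found in 3 kidney and heart stretches and 2 liver and heart stretches, compared with 25 for all 3 tissues. These shares are descriptions of the readable promoter stretches and were not tested.

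Other short motifs were found in smaller shares of these stretches. The E-box variant CACGTT, counted on both strands as CACGTT or AACGTG, was present in 5 of the 75 kidney and heart stretches (6.67%) and 3 of the 25 liver and heart stretches (12.0%), against 4.71% of all whole windows. CAGCTG, the E-box form of many other helix-loop-helix factors, was found in 6.67% and 12.0% against 16.4%. CCAAT, counted as CCAAT or ATTGG, was found in 13 kidney and heart stretches (17.3%) and 5 liver and heart stretches (20.0%) against 37.6% of all windows. The cAMP response element TGACGTCA was present in 1 stretch of each pair. The 2 hexamers GTGCAC and CCATGG, which have the base composition of CACGTG in another order, were each present in 3 of the 75 kidney and heart stretches and in no liver and heart stretch, against 5.53% and 9.61% of all windows. Neither hexamer holds the CG that CACGTG holds. CG had a median of 126 per kb in kidney and heart stretches and 116 in liver and heart stretches, against 23.3 over all windows. The 2 hexamers are therefore not matched to CACGTG in this respect. The stretches are shorter than whole windows, which lowers their share for any motif. Per kb, CAGCTG had 0.464 matches in kidney and heart and 0.740 in liver and heart stretches, against 0.619 over all windows. In kidney and heart GTGCAC had 0.232 against 0.195 and CCATGG 0.232 against 0.341. For CCAAT the densities were 1.24 and 1.48 against 1.80, and for CACGTT 0.386 and 0.740 against 0.161.

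Within the promoter windows, E-boxes gathered near the heart peak centres. Of 37 matches within 300 bp of a kidney and heart peak centre, 25 (67.6%) lay within 50 bp, where 24.1% of the readable positions were, and the median distance was 32.5 bp. Of 15 matches around liver and heart centres, 11 (73.3%) lay within 50 bp, where 20.2% of the positions were, with a median of 30.5 bp. The 3 copies at Amdhd2 were among these 15 matches. For regions of all 3 tissues the median distance was 24.5 bp, and for heart-only regions it was 50.5 bp. In the innermost 25 bp the density was 3.83 matches per kb in kidney and heart and 5.06 in liver and heart, and from 75 to 100 bp it was 0.320 and 0.897.

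**Figure D1:**
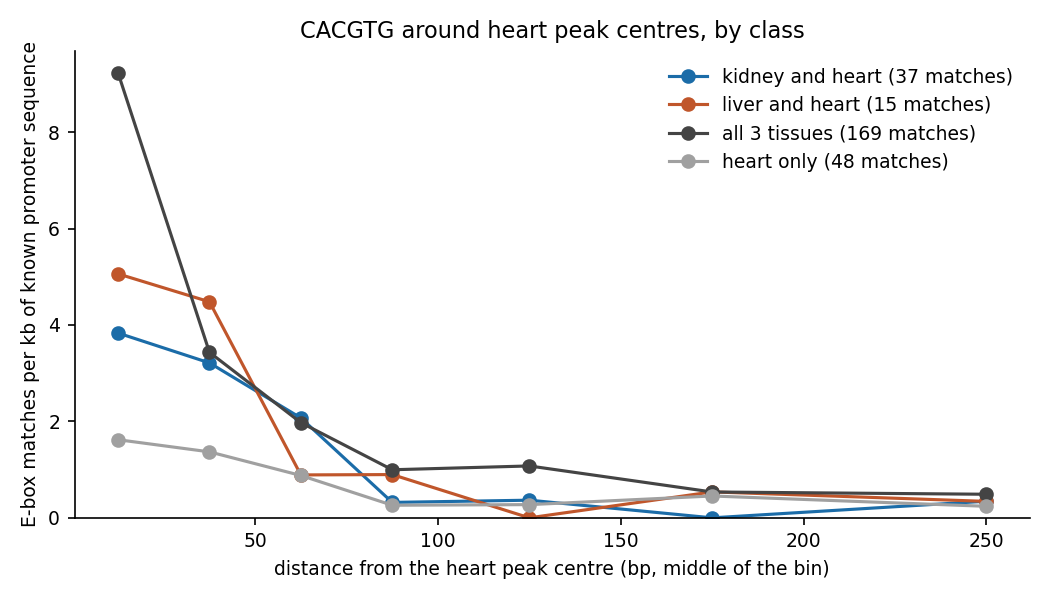
CACGTG matches per kb of readable promoter sequence (vertical axis) against distance from the heart peak centre in bp (horizontal axis, middle of each bin), with 1 line for each class of region. Matches were densest nearest the centre in each class; of those within 300 bp, 25 of 37 kidney and heart matches and 11 of 15 liver and heart matches lay within 50 bp.

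By their scores, members of both pairs stood between the regions of all 3 tissues and those found in heart only. The score is the authors' value per peak, and its scale is unknown, so it is compared only within a list and as a percentile rank, where 100 is the top of the list and tied scores share their mean rank. Presence in the lists chose the members, so these values are a description. In the heart list the kidney and heart regions scored from 16 to 201 with a median of 37, and their median percentile rank was 70.5. The liver and heart regions scored from 16 to 77 with a median of 35, a percentile rank of 67.9. The median percentile rank in the heart list was 88.3 for regions of all 3 tissues and 33.9 for heart-only regions.

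In the partner's list the ranks were spread more widely. Kidney scores of the kidney and heart regions ran from 14 to 148 with a median of 34, at a median percentile rank of 61.4. Liver scores of the liver and heart regions ran from 18 to 191 with a median of 50, at 63.2. Of the kidney and heart regions, 193 (84.6%) were in the upper 50% of the heart list and 144 (63.2%) in that of the kidney list, with 131 (57.5%) in both. The same counts for liver and heart were 110 (81.5%), 89 (65.9%) and 82 (60.7%). The heart rank was above the partner's rank in 156 kidney and heart regions (68.4%) and in 72 liver and heart regions (53.3%). The top 10% of the heart list held 15 kidney and heart regions (6.58%) but 2 liver and heart regions (1.48%), whereas the top 10% of the partner's list held 18 (7.89%) and 12 (8.89%). Ranks in the 2 lists of a pair went together across regions, with a Spearman rank correlation of 0.569 over 228 kidney and heart regions and 0.515 over 135 liver and heart regions. These points share pooled libraries and the heart list, and regions are not replicates.

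**Figure D2:**
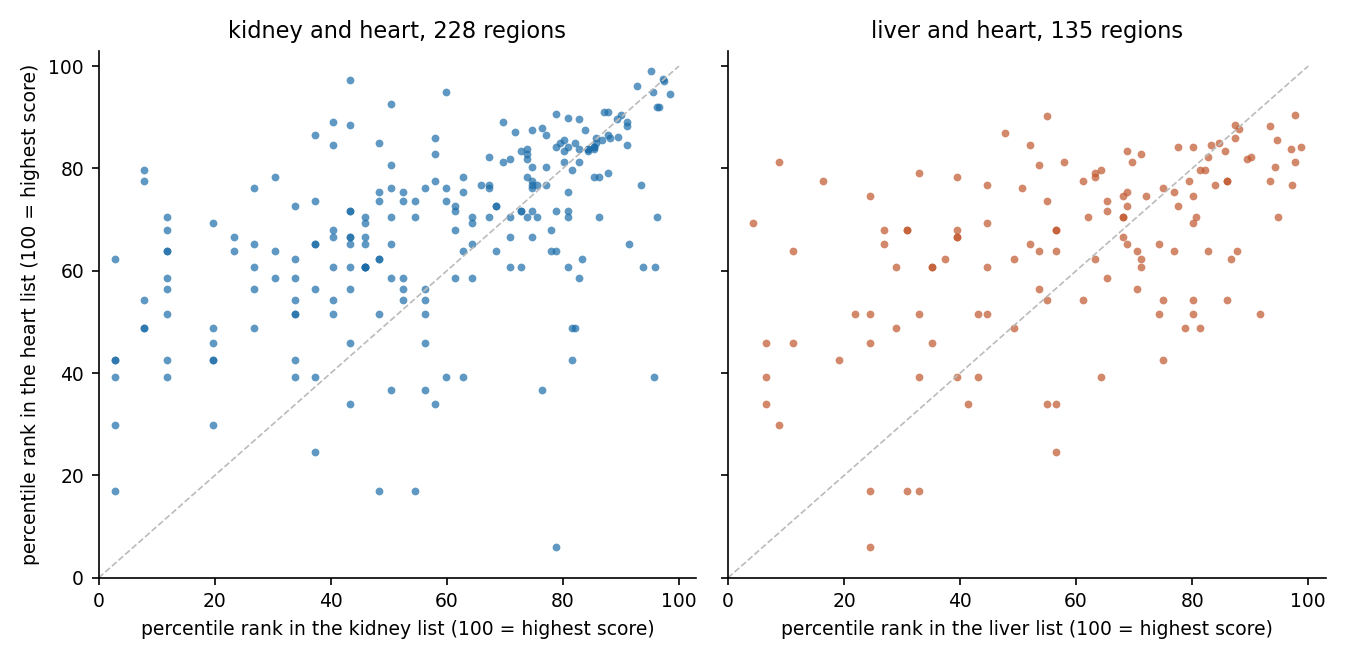
Percentile rank in the heart list (vertical axis) against that in the kidney list (left, 228 regions) or liver list (right, 135 regions), 1 point per region, with the dashed line at equal rank. Points above the line rank higher in heart: 156 kidney and heart regions and 72 liver and heart regions.

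Regions are named by the nearest protein-coding gene, which is not shown to be their target. The best-ranked kidney and heart regions lay near genes of varied roles, among them fatty acid transport, growth factor signalling and the clock. The region with the best mean percentile rank over both lists lay inside Lncpint, a long noncoding RNA gene, at chromosome 6, 31216633 to 31216867, with a heart score of 137 and a kidney score of 126. The nearest liver peak was 398 bp from it, centre to centre. The highest heart score of any member, 201 (rank 22.5 of 2519), belonged to a region 9250 bp outside Zswim4 on chromosome 8, which scored 102 in kidney (rank 194 of 4034). A region 5566 bp upstream of Ap5s1, which encodes a subunit of an adaptor complex of endosomes, scored 129 in heart and 131 in kidney.

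Fabp3 encodes the fatty acid binding protein typical of heart muscle. The region at chromosome 4, 130307902 to 130308123, lay 725 bp upstream of its start site and scored 101 in heart (rank 137.5) and 148 in kidney (rank 65, the highest kidney rank of any member). Inside Pdgfb, which encodes a subunit of platelet-derived growth factor, a region scored 106 in heart and 104 in kidney. Inside Pik3ip1, an inhibitor of phosphoinositide kinase signalling, the scores were 117 and 86. A region inside Kifc3, a kinesin motor, scored 84 in heart and 115 in kidney, and the region at the start of Trim37 scored 85 and 111. At Trim37 a liver peak lay 234 bp away, too far to overlap.

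The region at the start of Cipc, shown above, scored 69 in heart and 78 in kidney. Regions inside Aldh9a1, an aldehyde dehydrogenase of carnitine synthesis, and inside Cyp26b1, which breaks down retinoic acid, scored 77 and 74 in heart and 75 and 72 in kidney. A region 873 bp upstream of Rasd2, a small GTPase, scored 72 and 78. For these 12 regions the widest difference in percentile rank, heart minus kidney, was -4.61 points at Kifc3. Their choice by a high mean rank over both lists limits this difference, so it is not a trait of these regions. Over all 228 kidney and heart regions it ran from -72.8 to 71.8 points.

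Of the 12 best-ranked liver and heart regions, all but that of P2ry2 ranked higher in the liver list than in the heart list. These were chosen by a high mean rank, and percentile ranks of the group reached 98.8 in liver but 90.4 in heart. The liver excess is therefore not a trait of the group. Over all 135 regions the heart rank was the higher one in 72 (53.3%). The region highest over both lists lay deep inside Nr3c2, the gene of the mineralocorticoid receptor, 142690 bp downstream of a start site, at chromosome 8, 77044900 to 77045141. It scored 77 in heart (rank 241.5), the highest heart score of the liver and heart regions, and 162 in liver (rank 106.5 of 4813). The region with the highest liver score of these members, 191 (rank 58), lay 175 bp beyond the 3′ end of Ppp1r3c, whose product targets a phosphatase to glycogen, and scored 57 in heart (rank 399). A separate region bound in all 3 tissues also lay within 10 kb of Ppp1r3c.

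The region at the start of Mgll scored 69 in heart and 115 in liver, and that at the start of P2ry2 scored 70 and 89. A region inside Unc5b, a netrin receptor, scored 60 and 124, and one inside Myo18a, an unconventional myosin, scored 49 and 122. Inside Usp36, a deubiquitinase, the scores were 44 and 153. A region 254 bp upstream of Ube2q2, a ubiquitin-conjugating enzyme, scored 67 in heart and 91 in liver, and the region at the start of Tbl2 scored 61 and 89. The region nearest to Mamdc2, 41444 bp from it, scored 51 and 161, and the one nearest to Nrsn2 scored 56 and 151. The one 2626 bp upstream of Sipa1l2, which encodes a GTPase-activating protein for a GTPase of the Ras family, scored 53 and 99. Near Tbl2 and Nrsn2 a kidney peak centre lay 577 and 846 bp from the region.

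At the other end of the ranking, the lowest mean percentile ranks belonged to regions near the lowest score of one list or both. In kidney and heart these were at Slc12a2, the sodium, potassium and chloride cotransporter of many epithelia (22 in heart, 14 in kidney), Exoc6, a subunit of the exocyst (19 and 14), and Adnp2 (17 and 14). In liver and heart they were inside Insr (20 in heart, 19 in liver), at a site on chromosome 10 with no protein-coding gene within 50 kb (19 and 20), and at Dlgap1 (16 and 26).

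Some regions ranked far apart in their lists. Zfp800 scored 48 in heart (rank 512.5) but 15 in kidney (rank 3718), and Ccbe1 and Lactbl1 scored 45 and 31 in heart but 15 and 14 in kidney. In the opposite direction Evpl scored 16 in heart (rank 2367) and 50 in kidney (rank 855), Vgll4 scored 21 and 47, and a region on chromosome 8, 12486803 to 12487028, 86120 bp from the nearest protein-coding gene, scored 22 and 106. Among liver and heart regions, Abhd2 scored 51 in heart (rank 472.5) and 20 in liver (rank 4389), and 8030462N17Rik and Ssbp3 scored 36 and 45 in heart and 18 and 23 in liver. Dnttip2, Arhgef1 and Jkamp ranked higher in liver, with liver scores of 106, 64 and 74 against heart scores of 26, 23 and 25.

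Overlap of the peaks chose the members, which limits how far apart their centres can lie, so these distances are a description. Within that limit, the peaks of a pair lay nearly on the same base pairs in most regions. Every peak of a list had the same width, 198 bp in heart, 188 bp in kidney and 242 bp in liver. The overlap ran from 29 to 188 bp with a median of 167.5 bp in kidney and heart, and from 11 to 198 bp with a median of 195 bp in liver and heart. The median distance between the 2 peak centres was 25.5 bp in kidney and heart and 25 bp in liver and heart. The centres were within 50 bp of each other in 167 kidney and heart regions (73.2%) and 102 liver and heart regions (75.6%). In regions of all 3 tissues the median distance was 17 bp between heart and kidney and 18 bp between heart and liver.

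**Figure D3:**
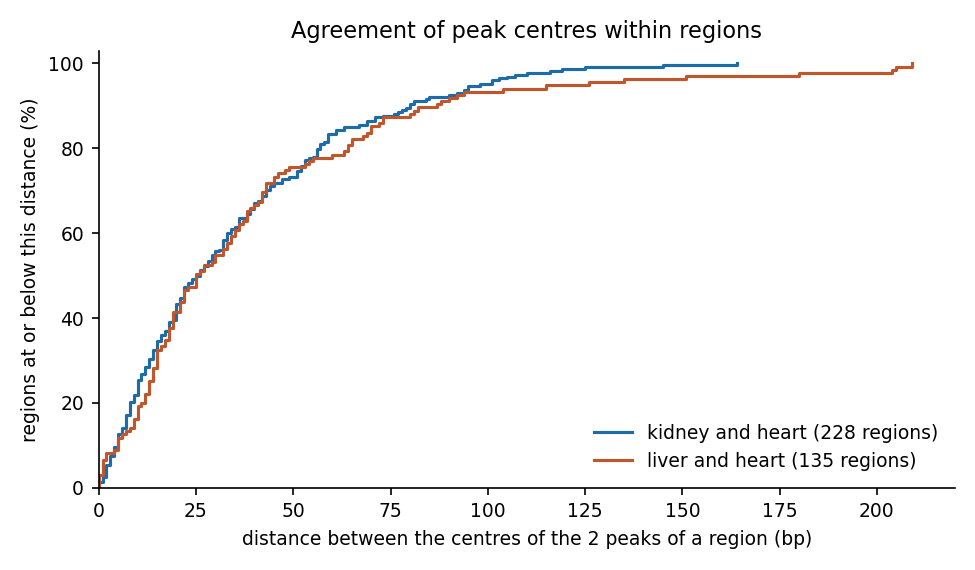
Share of regions (%, vertical axis) whose peak centres lie at or below a given distance in bp (horizontal axis), for the 228 kidney and heart regions and the 135 liver and heart regions. The curves run close together, with medians of 25.5 and 25 bp and highest distances of 164 and 209 bp. Overlap of the peaks chose the members and limits these distances.

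The rule of 1 bp left some members near its edge. The smallest overlaps were 29 bp at Casz1, a zinc finger transcription factor (21 in heart, 31 in kidney), 48 bp at Kyat1 and 68 bp at Kat6a, a histone acetyltransferase, in kidney and heart. In liver and heart they were 11 bp at Bmi1, a Polycomb protein (26 in heart, 35 in liver), 15 bp at Arhgef1 and 16 bp at Cys1. Just outside the rule, kidney and heart peaks missed each other by 10 bp in Tmcc3, 13 bp in Dtymk and 20 bp in Bcor, and liver and heart peaks by 3 bp in Npm1, 3 bp in Exoc6 and 5 bp in Prr3. In all, 28 pairs of kidney and heart peaks and 22 of liver and heart peaks lay within 300 bp without overlap. Pairs that a peak of the third tissue joined into 1 region were not taken out of these counts. The absent tissue also had peaks nearby: the centre of a liver peak lay within 1000 bp of 16 kidney and heart regions (7.02%) and within 50 kb of 95 (41.7%). The centre of a kidney peak lay within 1000 bp of 9 liver and heart regions (6.67%) and within 50 kb of 49 (36.3%). The same shares were not computed for other heart regions, so it is not known whether members differ from them in this. The liver list also held more peaks (4813) than the kidney list (4034), so the shares of the 2 groups are not directly comparable.

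Kidney and heart regions were found at the ends of genes more often than liver and heart regions. A gene end, which is either end of a RefSeq gene, was at most 1 kb from the region's centre in 133 of 228 kidney and heart regions (58.3%, exact 95% interval 51.6 to 64.8) and in 62 of 135 liver and heart regions (45.9%, 37.3 to 54.7). The difference was 12.4 percentage points (95% interval 1.79 to 22.7, p = 0.0319 in a two-sided Fisher's exact test, adjusted by Benjamini-Hochberg over 7 tests). Regions, not animals, are the units of this test. A further 72 kidney and heart regions (31.6%) and 56 liver and heart regions (41.5%) lay inside a gene away from its ends, and 23 (10.1%) and 17 (12.6%) lay outside genes. The call did not hold with a window of 2 kb (difference 10.7 points, Fisher's exact adjusted p = 0.0521) or 5 kb (6.55 points, 0.211), with shared peaks defined by centres within 1000 bp (9.63 points, 0.101), or with the upper 50% (11.7 points, 0.129) or top 2000 peaks (14.8 points, 0.0589) of each list. The direction was the same in each of these.

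Against the other classes, kidney and heart regions lay at gene ends more often than heart-only regions (30.4%, difference 28.0 points, two-sided Fisher's exact adjusted p = 3.99e-15) and than liver and kidney regions (47.4%, 10.9 points, 0.00559). They did not differ beyond the threshold from regions of all 3 tissues (65.1%, -6.79 points, 95% interval -14.4 to 0.703, Fisher's exact adjusted p = 0.0980). With a window of 2 kb, with start sites or with centres within 1000 bp, that last difference passed the threshold (-8.92, -8.44 and -9.22 points). With only the upper 50% of each list, the difference from heart-only regions was 10.2 points (Fisher's exact adjusted p = 0.116) and that from liver and kidney regions 0.784 points (0.925).

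Liver and heart regions lay at gene ends less often than regions of all 3 tissues, by 19.2 points (two-sided Fisher's exact adjusted p = 0.000234), and this call held under each of 11 alternatives. They lay there more often than heart-only regions, by 15.6 points (Fisher's exact adjusted p = 0.000766). They were not separated from liver and kidney regions (-1.47 points, 95% interval -10.2 to 7.50, Fisher's exact adjusted p = 0.783), but with the top 2000 peaks of each list the difference was -14.7 points (Fisher's exact adjusted p = 0.0307). The difference from heart-only regions moved with peak rank: it was -1.52 points (Fisher's exact adjusted p = 0.925) with the upper 50% of each list and -8.29 points (0.342) among regions whose heart peak had a percentile rank over 50 and up to 75. In that stretch of the heart list 64 of 101 kidney and heart regions (63.4%) lay at gene ends, compared with 24 of 63 liver and heart regions (38.1%), 46.4% of heart-only regions and 63.0% of regions of all 3 tissues. The stretch was chosen after seeing the data. Its tests left out liver and kidney regions, which hold no heart peak, so the adjustment there covered fewer than 7 tests. Kidney and heart stood 25.3 points above liver and heart there, whereas the pair barely differed elsewhere: the shares were 54.3% (50 of 92) and 53.2% (25 of 47) in the top 25% of the heart list and 54.3% (19 of 35) and 52.0% (13 of 25) in the lower 50%. Heart-only regions stood at 45.5% in the top 25% and 24.2% in the lower 50%, below liver and heart regions in both. Regions of all 3 tissues stood at 67.0% (268 of 400) in the top 25%, above liver and heart regions. In the lower 50% they stood at 44.4% (12 of 27), below liver and heart regions, and this was not tested.

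**Figure D4:**
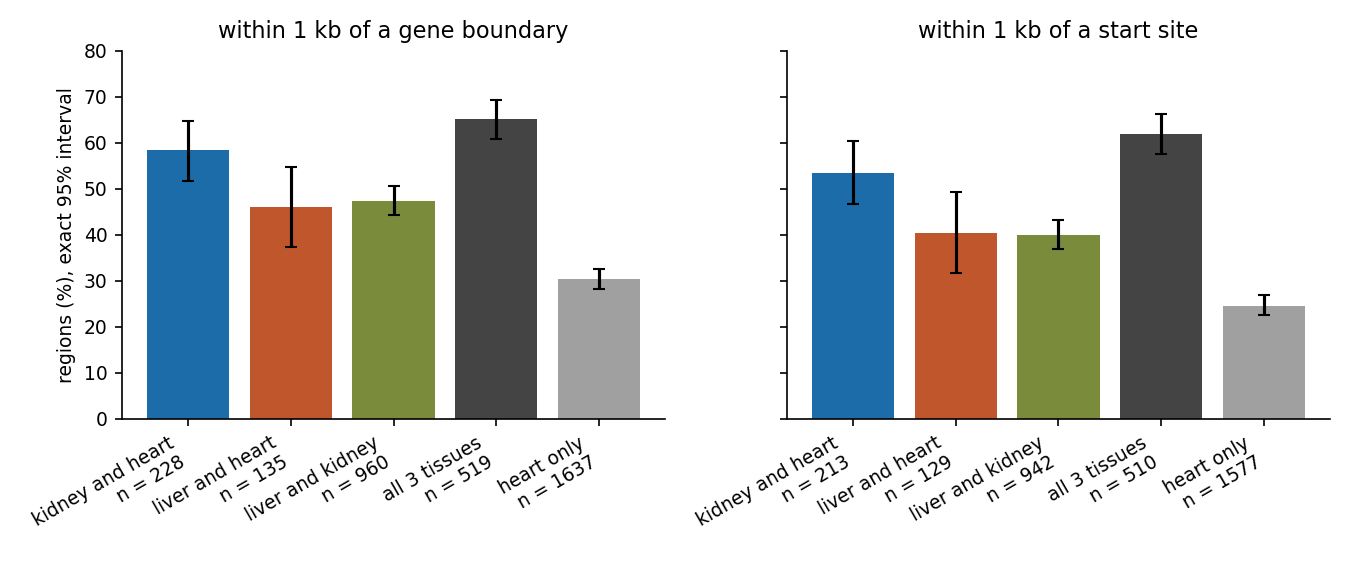
Share of regions (%, vertical axis) whose centre lies within 1 kb of a gene end (left) or of a start site (right), for each class, with exact 95% intervals as error bars and the number of regions under each bar. Kidney and heart regions stand at 58.3% and 53.5%, liver and heart regions at 45.9% and 40.3%.

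Start sites likewise placed kidney and heart above liver and heart. Within 1 kb of a start site lay 114 of 213 kidney and heart regions (53.5%) and 52 of 129 liver and heart regions (40.3%), against 62.0% for all 3 tissues, 40.0% for liver and kidney and 24.6% for heart only. Within 100 bp lay 52 (24.4%) and 21 (16.3%) of the 2 groups. Of the regions within 1 kb, 72 in kidney and heart (63.2%) and 27 in liver and heart (51.9%) lay upstream of the start, at median distances of 117.75 and 166.25 bp in either direction. Start sites on both strands were within reach in 17 kidney and heart regions (14.9%) and 8 liver and heart regions (15.4%).

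None of the 20 clock genes and clock outputs in the gene lists had a region of either pair inside it or within 10 kb. The same held for the 20 kinases, phosphatases and ubiquitin enzymes of clock proteins. Cipc, the repressor of the CLOCK and BMAL1 complex with a kidney and heart region at its start, was in neither list. Over all 21631 protein-coding genes, 290 (1.34%) had a kidney and heart region inside or within 10 kb and 154 (0.712%) had a liver and heart region. Over the 15 gene lists together, 8 of 367 genes (2.18%) had a kidney and heart region and 7 (1.91%) a liver and heart region. Against these shares of all genes, a list of 20 genes with no such region is not a result about the list.

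For kidney and heart, the list genes encode proteins of muscle, fat and sugar metabolism and transcription. Tcap, the Z-disc protein telethonin, was the only one of 20 heart-typical genes, with a region 5783 bp away, nearer to Stard3, that scored 133 in heart (rank 67.5) but 25 in kidney (rank 2290). None of the 20 kidney-typical or 20 liver-typical genes had a region of either pair. Fabp3, described above, and Acaca, the acetyl-CoA carboxylase of fat synthesis, whose region lay at the start of Tada2a (52 in heart, 44 in kidney), were 2 of 38 genes of lipid handling. Pfkfb3, which makes the main activator of phosphofructokinase, was 1 of 42 genes of sugar metabolism (66 and 58). Near Pfkfb3 there was also 1 region of all 3 tissues. Among 30 nuclear receptors, Thra, a thyroid hormone receptor, scored 63 and 67, with 2 regions of all 3 tissues also nearby, and the orphan receptor Nr4a1 scored 63 in heart (rank 339) and 23 in kidney (rank 2532). Klf3, 1 of 17 Kruppel-like factors, had a region 268 bp upstream of its start (59 and 62), and Hsf2, 1 of 23 chaperone and heat shock genes, scored 55 and 59.

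For liver and heart, the list genes encode proteins of hormone and insulin signalling, glycogen and protein folding. Insr, the insulin receptor, had 2 regions, with heart scores of 26 at a gene end and 20 deep inside it, and liver scores of 25 and 19. Akt1, a kinase that acts after the insulin receptor, scored 35 in heart and 29 in liver, and these were 2 of 24 genes of insulin and growth factor signalling. Klf13, a Kruppel-like factor, had a region 289 bp upstream of its start (57 in heart, 72 in liver) and a second one inside the gene (27 and 85). Near Klf13 there were also 2 regions of all 3 tissues, and a kidney peak centre lay 1561 bp from the upstream region. Hsp90b1, a chaperone of the endoplasmic reticulum, scored 25 and 70, and Hspa8, a constitutive chaperone, had a region 1142 bp away that scored 39 and 56. Nr3c2 and Ppp1r3c were given above. No list on mitochondria, hypoxia, ion channels of heart and kidney or the cell cycle had a gene with a region of either pair.

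A few genes held several members. Counting each region under its nearest protein-coding gene, Fhod3, Kifc3, Stk39 and Tmcc3 had 2 kidney and heart regions each. Fhod3 encodes a formin of the heart sarcomere, with heart scores of 46 and 33 and kidney scores of 61 and 23. Stk39 encodes a kinase that acts on cation and chloride cotransporters, with 1 region at its start (31 in heart, 22 in kidney) and 1 far inside (21 and 28). Insr, Klf13, Nav2 and Rassf4 had 2 liver and heart regions each. Igf2r, Sipa1l2, Tns1 and U2af2 had 1 region of each pair. In U2af2, a splicing factor gene, the kidney and heart region at chromosome 7, 5061181 to 5061399, and the liver and heart region at 5062342 to 5062583 were neighbours, with heart scores of 43 and 35. At Igf2r, a receptor that clears an insulin-like growth factor, the kidney and heart region lay at the start (33 in heart, 36 in kidney) and the liver and heart region 23013 bp upstream (40 in heart, 52 in liver).

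Of the genes with a kidney and heart region within 10 kb, 20 of 290 (6.90%) also had a region of all 3 tissues within 10 kb, as did 9 of 154 (5.84%) of the genes with a liver and heart region, against 676 of all protein-coding genes (3.13%). A protein-coding gene lay within 50 kb of 219 of the 228 kidney and heart regions, which were inside it in 137 cases, and of 130 of the 135 liver and heart regions, inside in 87. The kidney and heart regions named 215 different genes and the liver and heart regions 126. By chromosome, the kidney and heart regions were most numerous on chromosome 11, with 21, and the liver and heart regions on chromosome 7, with 16. The shares of all merged regions on these chromosomes were not computed, so the counts are not a result about a chromosome. On chromosome X lay 5 kidney and heart regions (2.19%, exact interval 0.716 to 5.04). No liver and heart region lay there (0%, exact interval 0 to 2.70). These intervals overlapped. The share was 1.93% for all 3 tissues, 1.35% for liver and kidney and 0.489% for heart only. The difference between the pairs was not tested, so it is not a result about either pair.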

How the data were processed

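BMAL1 ChIP-seq peak lists of liver, kidney and heart were used, for each of which the authors pooled the replicates, ChIP and input, per the labels. The submitters' processing notes name Bowtie2, SAMtools, HOMER and mm10; their versions, roles and settings were not stated. The deposited lists give a position and a score per peak, of unstated scale. The score served only to rank peaks within a list. Libraries were grouped by title and tissue label.

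Lists were merged in Python 3.11.15 with pandas 2.3.3. Gene ends, promoter windows and miRNA positions were taken from RefSeq (GRCm38.p6); start sites on chromosome 18 were not used, which leaves 213 and 129 regions for them. Shares have Clopper-Pearson 95% intervals (SciPy 1.17.1) that cover counting error only, and were compared by two-sided Fisher's exact tests with Benjamini-Hochberg adjustment over 7 tests, at a threshold of 0.05, tested on simulated data. No E-box test was made, since no genome was used here. Alternatives changed the overlap rule, the peaks admitted, the boundary window, the genes and the distance to genes.

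The text names, for each pair of tissues, the 12 best and 3 lowest regions by mean percentile rank, the 3 in each direction whose ranks differ most, the 3 smallest overlaps and nearest misses, list genes with a region within 10 kb and genes with several regions. All 374 list entries matched a gene. The members, lists and tests were chosen with earlier results of these data known.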

Additional observations from a re-analysis of the deposited data

How the results depend on the processing

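Kidney and heart numbered 228 regions and liver and heart 135. With the upper 50% of each list the first number was 147, and with the top 1000 peaks 129. The second was 85 with the top 2000 peaks and 51 with the top 1000. Genes with a kidney and heart region numbered 290, or 138 when only regions inside them counted and 586 within 50 kb. For liver and heart these were 154, 85 and 348.

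Of 7 differences in gene end shares, that of liver and heart from all 3 tissues kept its direction and call under 11 alternatives (-24.9 to -12.6 points). The lower 50% of the heart list was not among these alternatives. There the order was the other way, at 52.0% (13 of 25) for liver and heart and 44.4% (12 of 27) for all 3 tissues. Kidney and heart against liver and heart lost its call, at 10.7 (2 kb), 6.55 (5 kb), 9.63 (centres within 1000 bp), 11.7 (upper 50%) and 14.8 points (top 2000). Kidney and heart against all 3 tissues passed the threshold at -8.92 (2 kb), -8.44 (start sites) and -9.22 points (centres within 1000 bp), and turned to 0.323 in the heart rank stretch of 50 to 75. Against liver and kidney it fell below the threshold at 0.784 (upper 50%) and 0.0826 points (top 2000), and against heart only at 10.2 (upper 50%). Liver and heart against liver and kidney turned to 0.347 (2 kb), 1.28 (5 kb), 0.289 (start sites) and 0.617 points (centres within 1000 bp), and passed the threshold at -14.7 (top 2000). Against heart only it was 3.92, no longer past the threshold (top 2000), and turned to -1.52 (upper 50%) and -8.29 (heart rank stretch of 50 to 75). The cause of these changes was not tested. The heart rank stretch was chosen after seeing the data.

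No paired analysis was possible because each peak list was made from all replicates of a tissue together, and for the same reason none was left out in turn. The test of E-box shares over whole peaks, and its versions with other windows or motifs, were not run, since no genome sequence was used here. Depth is unknown, so a region that lacks a peak of the other tissue is not shown to lack binding there.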

Other observations

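Some regions lay close to miRNA genes. Within 5000 bp of a hairpin were kidney and heart regions at Mir8114, 177 bp away and near Glul, the gene of glutamine synthetase (26 in heart, 16 in kidney), at Mir203, 270 bp away (22 and 35), at Mir7671, 692 bp away and near Irf1 (29 and 36), and at Mir6935, 2854 bp away and near Actg1 (40 and 30). The liver and heart regions at Mir7043 and Mir6937 lay 1878 and 3764 bp away, with heart scores of 46 and 32 and liver scores of 33 and 58.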
